A study of Rattus norvegicus with 4 samples.

Results

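The heat shock proteins and co-chaperones are the proteins that fold, hold and sort other proteins. They were chosen here by the gene name each probe carries on the array: Hsp genes of the families a to e and h, all Dnaj and Bag genes, Cryab, the heat shock factors Hsf1 and Hsf2, and the adaptors Stip1 and Stub1. The rule found 91 probes with 63 gene names, of 41012 probes with 35658 gene names on the array. The 63 genes comprise 8 small heat shock proteins, 10 Hsp70 genes, 3 Hsp110 genes, 2 Hsp90 genes, the pair Hspd1 and Hspe1, 27 DnaJ genes, 4 Bag genes, 2 heat shock factors, 4 adaptors and Hspa5bp1. Some names are those of the array's time. Hspca is Hsp90aa1, Hspcb is Hsp90ab1 and Hspa9a is Hspa9, while Hspa5bp1 is now Tmem132a, a membrane protein that belongs to no chaperone family.

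RNA came from the gracilis, a thigh muscle, taken from male Sprague-Dawley rats. The injured muscles had 4 h of ischemia and then 1, 3, 7 or 14 days of reperfusion, and the controls were gracilis muscles of sham-operated male Sprague-Dawley rats. Each day was read on 1 two-colour array, with injured RNA in Cy5 and sham RNA in Cy3, 1 sample of each and no dye swap. The animals' ages, and whether the 4 sham channels hold RNA of 1 animal or several, are not given in the sources used here. A day therefore has a value and no error between animals, and a dye effect of a probe cannot be told apart from a difference between the muscles.

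Values are log2 ratios of injured over sham, where -1 is a signal of 50% of the sham value. Unless another setting is named, they are ratios after loess within each array. A gene is represented by its brightest probe and counted on a day when either channel of that probe stood well above background. At least 2-fold is a rule of size, not a test. The share of all probes with a signal well above background was 64.4% to 68.7% in injured muscle and 34.7% to 47.3% in sham muscle. Repeated spots of 1 probe had an SD of 0.06 to 0.12 (40 probes with 10 spots each), and different probes of 1 gene had an SD of 0.31 to 0.38 on an array. Days 1, 3 and 7 were scanned in 1 session and day 14 in another, so the scan session and day 14 cannot be told apart.

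Chaperones work as a relay. Small heat shock proteins bind unfolding proteins without using ATP, and in muscle they sit on desmin, actin and the Z-disc. Hsp70, helped by DnaJ proteins and by exchange factors such as Bag proteins and Hsp110, refolds the bound proteins, Hsp90 finishes its own set of clients, and Hspd1 with Hspe1 folds proteins inside mitochondria. Heat shock factors switch on many of these genes after stress by binding repeats of GAA and its complement TTC.

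The genes of muscle's small heat shock proteins and those of the large families took different courses. On days 1 and 3 the small heat shock proteins had medians of -2.41 and -2.30, with 6 of 8 genes at least 2-fold lower than sham on each day. The large families (Hsp70, Hsp110, Hsp90, Hsp60 and Hsp10, and DnaJ) had medians of -0.13 and -0.32, with 2 of 40 and 3 of 41 measured genes at least 2-fold lower and 0 higher. On days 7 and 14 the small heat shock proteins lay at -0.00 and -0.40 and the large families at -0.28 and -0.30. The median of all genes was between 0.02 and 0.05 on every day. Genes of a family are not replicates, so these medians describe the families and carry no test.

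**Figure D1:**
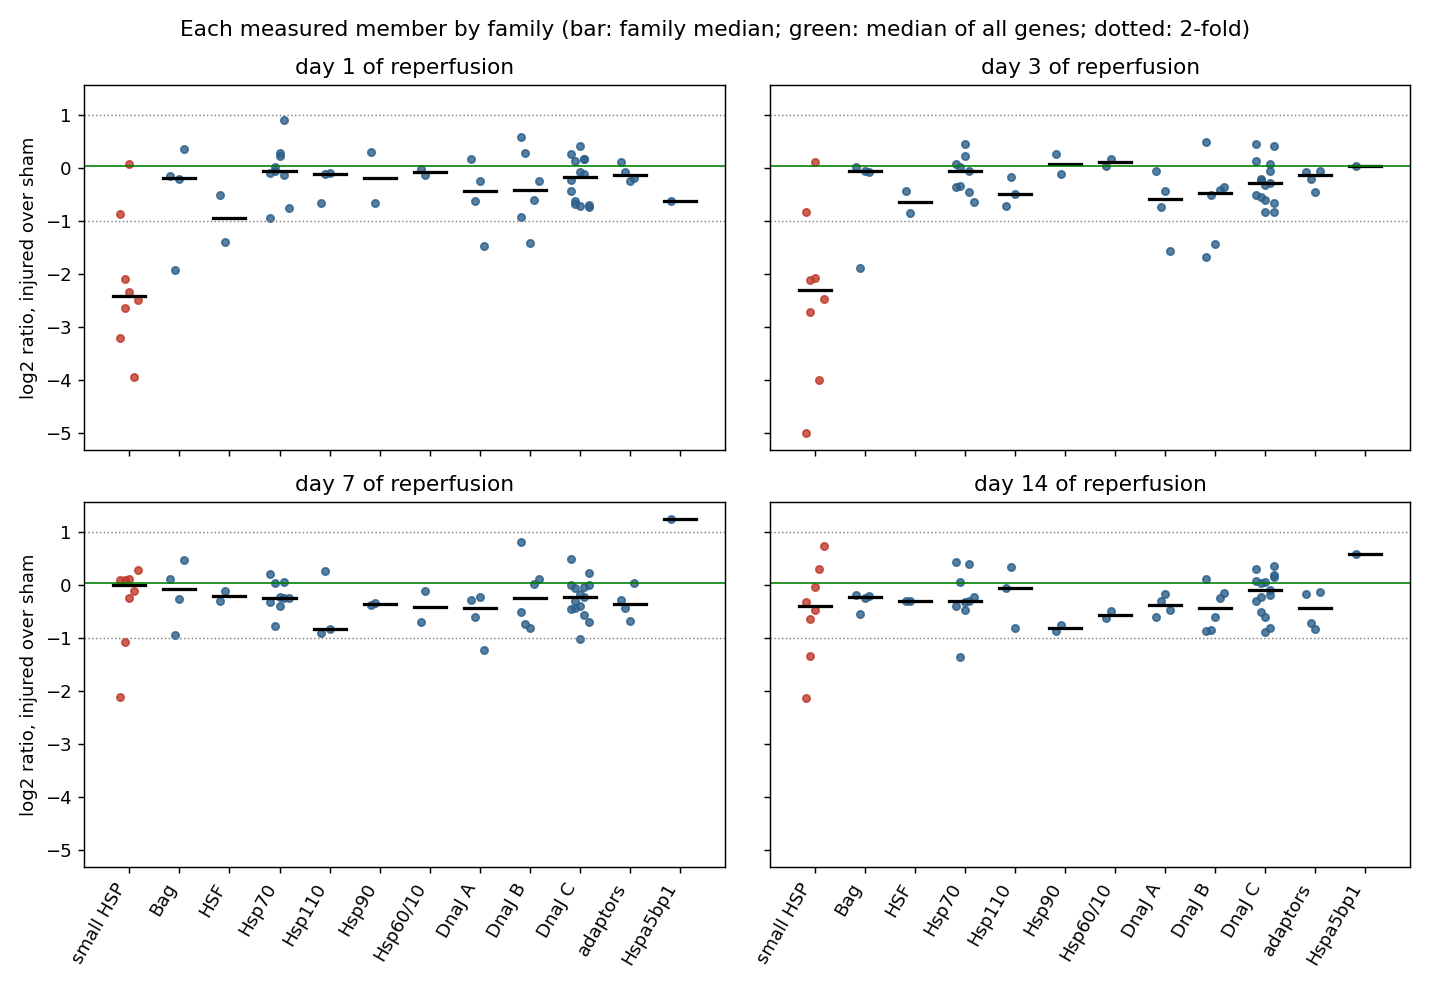
Log2 ratio of injured over sham muscle (vertical axis) for each measured gene, by family (horizontal axis), in 1 panel per day of reperfusion. Points are genes, black bars are family medians, the green line is the median of all genes and dotted lines mark 2-fold. The small heat shock proteins (red) reach -5.01 on day 3, whereas no gene of the large families lies below -1.68 or above 0.89 on any day.

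Of the 63 genes, 59, 60, 60 and 60 were measured on days 1, 3, 7 and 14. Counts at least 2-fold lower than sham were 10, 10, 4 and 3, which is 16.9%, 16.7%, 6.67% and 5% of the measured members. Over all measured genes the shares lower were 4.91%, 3.95%, 1.23% and 1.57%. Counts at least 2-fold higher were 0, 0, 1 and 0 members, against 1.24%, 2.47%, 3.13% and 3.14% of all genes. The 1 higher member, on day 7, was Hspa5bp1. Centring on the median without loess gave 17, 12, 4 and 5 members higher and 6, 7, 1 and 1 lower. With that centring 21.8%, 17.2%, 11.6% and 12.1% of all genes were higher and 1.89%, 1.61%, 0.332% and 0.413% lower. The deposited ratios gave 0, 0, 3 and 2 members higher and 15, 14, 13 and 12 lower. By those ratios 12%, 15.4%, 17.3% and 17.2% of all genes were higher and 8.53%, 7.42%, 8.05% and 6.42% lower. The counts of members and of all genes therefore depend strongly on the scaling. Of all genes past 2-fold, 20.2%, 38.5%, 71.8% and 66.7% were higher, against 92.0%, 91.4%, 97.2% and 96.7% with that centring and 58.4%, 67.4%, 68.2% and 72.8% with the deposited ratios. Over the whole course 46 of 60 members stayed within 2-fold of sham on every day measured, 14 passed 2-fold on some day, and 6 passed 4-fold. Those 6 were Cryab, Hspb1, Hspb2, Hspb3, Hspb6 and Hspb8. The matching shares of all genes over the whole course were not computed, so these counts only describe the members. The 3 members Hspa1b, Dnajb13 and Dnajc5g were not well above background in either channel on any day by their brightest probes. The brightest Dnajc6 probe was not on day 1, when 2 other probes of that gene were and gave 0.07 and 0.16.

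The stretch before the start site is shown for some of the small heat shock proteins, to place the genes with the largest differences beside the element that heat shock factors bind. The sequences are the 250 bases upstream of the RefSeq start site (build GRCr8), 5′ to 3′ on the gene's strand, and capitals mark each match to GAANNTTC, a head-to-head pair of the repeat. The windows are chr12:26432302-26432551 (minus strand) for Hspb1, chr1:94934122-94934371 (plus strand) for Hspb6, chr12:45837058-45837307 (plus strand) for Hspb8 and chr2:47029166-47029415 (minus strand) for Hspb3.
Hspb1: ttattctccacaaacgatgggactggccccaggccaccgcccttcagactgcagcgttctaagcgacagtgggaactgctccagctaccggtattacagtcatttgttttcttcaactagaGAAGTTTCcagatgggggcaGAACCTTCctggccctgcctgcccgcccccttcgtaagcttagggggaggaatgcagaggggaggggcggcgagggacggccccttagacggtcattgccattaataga
Hspb6: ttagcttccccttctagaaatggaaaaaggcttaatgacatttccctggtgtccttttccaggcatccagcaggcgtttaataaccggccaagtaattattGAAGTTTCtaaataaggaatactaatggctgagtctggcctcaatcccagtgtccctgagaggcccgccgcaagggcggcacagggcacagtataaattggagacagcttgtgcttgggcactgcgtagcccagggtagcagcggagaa
Hspb8: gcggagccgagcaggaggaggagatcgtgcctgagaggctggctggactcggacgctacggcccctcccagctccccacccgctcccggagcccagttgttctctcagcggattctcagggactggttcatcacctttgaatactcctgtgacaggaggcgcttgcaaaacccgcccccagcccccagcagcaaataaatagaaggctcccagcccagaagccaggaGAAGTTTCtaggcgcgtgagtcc
Hspb3: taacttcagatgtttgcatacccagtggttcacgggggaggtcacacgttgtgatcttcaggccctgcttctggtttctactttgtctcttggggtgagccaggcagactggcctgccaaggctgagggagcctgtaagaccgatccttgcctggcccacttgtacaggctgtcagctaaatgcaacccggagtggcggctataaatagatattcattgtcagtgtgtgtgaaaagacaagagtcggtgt
Hspb1 holds 2 matches, Hspb6 and Hspb8 hold 1 each, and the Hspb3 window holds none. The match nearest the start site lies 109 bases before it in Hspb1, 149 in Hspb6 and 23 in Hspb8.

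RefSeq gave a window for 49 of the 63 members. GAANNTTC, which reads the same on both strands, was found in 14 of the 49 (28.57%) and in 2420 of 33469 windows of all promoters (7.231%). By family it was in 3 of 6 small heat shock proteins, 10 of 35 genes of the large families and 1 of 3 Bag genes, Bag3. Longer forms, in which GAANNTTC is followed after 2 bases by GAA or preceded at 2 bases by TTC, were in 4 members (8.163%), namely Hspa8, Hspd1, Hspe1 and Hsph1, against 222 of all windows (0.6633%). Hspd1 and Hspe1 are divergent neighbours whose windows overlap and share their matches. Of the 10 members with the short pair alone, Hspb1, Hspb6, Hspb8 and Bag3 passed 2-fold on some day, 5 stayed within it and Dnajc5g was not measured. The 4 with the longer form stayed within 2-fold by their brightest probes, as did 29 of the 35 without a match. Cryab and Hspb2 are among the 14 members for which no window was used. A match describes letters in a window and says nothing about binding.

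Among the small heat shock proteins Cryab had the lowest ratio on days 3, 7 and 14. On day 1 the lowest computed ratio was that of Hspb3. By the deposited ratios Hspb3 was the lowest on day 3 too, at -5.99 against -5.05 for Cryab. The Cryab values are bounds, so the order of Hspb3 and Cryab in these 2 cases is not known. Cryab encodes alpha B-crystallin, which binds desmin and the Z-disc, and its probe lies at chr8:54111396-54111455 (rn4). Its injured signal was 13.7, 11.7, 14.6 and 14.3 (log2 normalized signal) on days 1, 3, 7 and 14, and its sham signal was 16.9, 16.7, 16.7 and 16.5. The injured muscle was lower on every day, and the sham spot was saturated on every array, so the differences are bounds. They were at least 9.26-fold, 32.2-fold, 4.30-fold and 4.38-fold lower (log2 ratios -3.21, -5.01, -2.10 and -2.13).

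Hspb2, a small heat shock protein that binds the myotonic dystrophy kinase, lies next to Cryab (probe at chr8:54106086-54106145). Its injured signal was 6.6, 6.6, 8.5 and 8.5 against sham signals of 8.9, 8.6, 8.8 and 9.0. The injured muscle was 5.06-fold and 4.21-fold lower on days 1 and 3 and within 2-fold on days 7 and 14 (-0.25 and -0.48). These neighbours therefore shared the low early values, and on the later days Hspb2 was near sham while Cryab was not.

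Hspb1 (Hsp27, a chaperone of the actin skeleton) had injured signals of 11.1, 11.2, 12.7 and 12.3 and sham signals of 13.8, 13.9, 13.8 and 13.7. The sham signals were nearly equal, and the injured ones were all below them. The ratios were -2.65, -2.72, -1.07 and -1.34. On days 7 and 14 the place of Hspb1 past 2-fold depends on the normalization, since centring on the median put it at -0.17 and -0.52.

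Hspb6 (Hsp20) had injured signals of 7.9, 7.9, 9.5 and 11.3 and sham signals of 10.3, 10.4, 9.2 and 10.5. Hspb3, which pairs with Hspb2, had injured signals of 6.7, 6.0, 8.0 and 11.1 and sham signals of 10.70, 9.97, 8.15 and 10.81. Both were far below sham on days 1 and 3 and near or above it later. The ratios of Hspb6 were -2.49, -2.48, 0.28 and 0.73, and those of Hspb3 were -3.95, -4.00, -0.10 and 0.29.

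The day 7 ratios of these genes were taken against a low sham signal. The sham signal of Hspb3 spanned 2.66 log2 units over the 4 arrays and that of Hspb6 spanned 1.36, both lowest on day 7, and Dnajc15 was the only other member to span at least 1. Against the mean of the 4 sham channels, day 7 was -1.86 for Hspb3 and -0.66 for Hspb6, and day 14 was 1.20 and 1.15. The Hspb3 spot lies in a dim area of the array. For its sham signal the scanner software's spatial factor there, relative to the array's average, was 0.76, 0.51, 0.34 and 0.91 on days 1, 3, 7 and 14. For its injured signal the factor was 0.79, 0.55, 0.40 and 0.92. Both channels were thus dim on day 7, and the mean of the 4 sham channels includes brighter spots. The other 7 small heat shock protein spots had sham factors of 0.83 to 1.22, with 1.00 for Hspb6 on day 7. The deposited ratio of Hspb3 divides each channel by its factor and uses another dye normalization. It was -4.67, -5.99, -1.79 and 0.28, and the cause of its difference from the loess ratio was not tested. Whether Hspb3 was near sham on day 7 thus depends on the processing. Its values on days 1 and 3 were -2.98 or lower under every setting.

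Hspb8 (Hsp22), which works with Bag3 to hand damaged muscle proteins to autophagy, had injured signals of 8.2, 8.1, 10.6 and 9.6 and sham signals between 10.2 and 10.5. Its ratios were -2.09, -2.11, 0.10 and -0.65, so it was near sham on day 7 and lower again, within 2-fold, on day 14. Hspb7, a heart and skeletal muscle form that binds filamin C, lay at -0.87, -0.83, 0.10 and -0.31. A second Hspb7 probe gave -1.16, -1.28, 0.01 and -0.72, so its place relative to 2-fold on the early days depends on the probe. Hspb9, known from testis, stayed within 0.12 of sham, and its sham channel was not well above background on any of the 4 days.

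**Figure D2:**
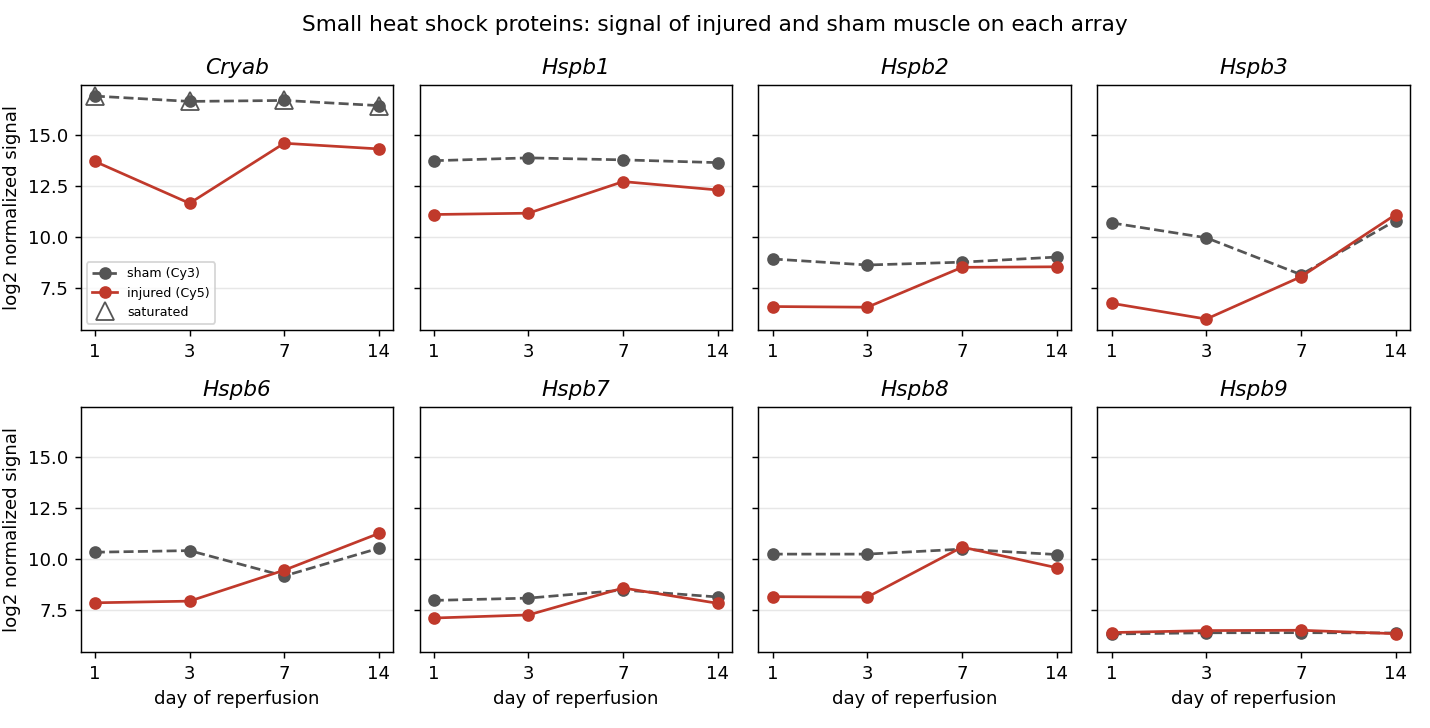
Log2 normalized signal (vertical axis) of the 8 small heat shock proteins in injured (red, Cy5) and sham muscle (grey, Cy3) on the 1 array of each day of reperfusion (horizontal axis); open triangles mark saturated sham spots. The sham lines are nearly flat except for Hspb3 and Hspb6 on day 7, and the injured lines are lowest on days 1 and 3 except for Hspb9, which is nearly flat.

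Of the 4 Bag genes, the exchange factors of Hsp70, Bag3 alone passed 2-fold by the loess ratios. Its injured signal was 11.4, 11.4, 12.3 and 12.5 and its sham signal 13.3, 13.3, 13.3 and 13.1, giving -1.93, -1.89, -0.95 and -0.56. Bag3 was thus lowest on the same days as its partner Hspb8. Bag1, Bag4 and Bag5 lay between -0.26 and 0.47 on all days. The value of Bag4, a silencer of death receptors, depends on the processing as that of Hspb3 does. Its deposited ratio on day 7 was -2.70 where the loess ratio was -0.26. The spatial factor of its spot that day was 0.34 in the sham channel and 0.42 in the injured channel. The cause of the difference was not tested.

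Genes whose proteins work with Bag3 and Hspb8 at the Z-disc were low on the same days. All 5 of Des (desmin), Flnc (filamin C), Myot (myotilin), Sqstm1 (the autophagy receptor p62) and Synpo2, whose probe carries the name RGD1564779, were at least 2-fold lower on days 1 and 3, with medians of -2.96 and -2.39. On day 7 Sqstm1 was lower at -1.58 and Synpo2 higher at 1.05, and on day 14 Sqstm1 (-1.21) and Flnc (-1.04) were lower. Des moved from -3.42 and -2.51 to -0.37 and -0.23.

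Markers of the muscle fibre moved with the small heat shock proteins. All 10 fibre markers were at least 2-fold lower on days 1 and 3, with medians of -3.34 and -4.30, then 5 were lower and 1 higher on day 7 (median -0.90) and 3 lower and 3 higher on day 14 (median 0.26). Their summed signal, on the log2 scale, was 15.6, 14.9, 17.5 and 18.2 in injured muscle and 19.1, 19.1, 18.5 and 18.2 in sham muscle. Of the slow-fibre genes, Myl2 and Tnnc1 stayed lower on day 14 at -3.43 and -2.46 and Myh7, whose sham spot was saturated, was at least 6.32-fold lower, as Cryab was lower, while the fast-fibre genes Myh4 and Tnnt3 were higher at 1.53 and 1.65. None of the 10 was below background in either channel. In whole muscle, fewer fibres and less RNA of a gene per fibre cannot be told apart, and the part of fibre content in the chaperone values was not tested.

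Both heat shock factors were below sham on every day by the loess ratios. Centring on the median put Hsf1 above sham on every day, at 0.35 to 0.56, and Hsf2 on days 3, 7 and 14, at 0.09 to 0.62, so no direction is given for them. Hsf1 lay at -0.51, -0.43, -0.30 and -0.31. Hsf2 was at -1.40, -0.85, -0.11 and -0.29, past 2-fold on day 1 only, and its second probe gave -0.62 on that day.

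Hspa1a encodes the stress-induced Hsp70, and its response is the usual sign of a heat shock response. Its injured signal was 10.3, 9.0, 9.7 and 9.6 and its sham signal 9.4, 9.5, 9.6 and 9.2. The ratio was 0.89 on day 1, the highest of any large-family gene on that day but under 2-fold, and then -0.46, 0.05 and 0.39. A second Hspa1a probe gave 0.18, -0.41, -0.11 and -0.23, so the day 1 excess was seen by 1 of 2 probes. Hspa1b is a near-identical copy whose own probe stayed below background in both channels, and the probes may not separate the copies.

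The main Hsp70 and Hsp90 forms of the cytosol stayed within 2-fold of sham by their brightest probes. Hspa8 (Hsc70) had injured signals of 13.3, 13.5, 13.2 and 12.9 and sham signals of 13.1, 13.3, 13.5 and 13.3, with ratios of 0.21, 0.21, -0.23 and -0.47. Its 3 other probes gave -0.06 to 0.17 on day 1 and -0.82 to -0.02 on day 3, so its early direction depends on the probe, while all 4 were below sham on days 7 and 14. Hspca, the inducible Hsp90, had ratios of 0.30, 0.25, -0.38 and -0.87, and its 3 other probes gave -1.02, -1.40 and -1.47 on day 14. Hspcb, the constitutive Hsp90, lay at -0.67, -0.11, -0.33 and -0.76. On day 14 each of these 3 genes was below sham by the loess ratios, and for Hspca the brightest probe was the closest to sham. Direction against sham depends on the processing for all 3. Over the alternatives the mean of the 4 arrays spanned -0.31 to 1.02 for Hspa8, -0.34 to 0.97 for Hspca and -0.61 to 0.68 for Hspcb.

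Hspa5 (BiP), the Hsp70 of the endoplasmic reticulum, was the Hsp70 gene farthest from sham. Its injured signal was 13.9, 13.8, 12.5 and 12.2 and its sham signal 13.9, 14.1, 13.3 and 13.6. By the loess ratios it was at sham on day 1 (0.01) and lower on each later day, at -0.34, -0.76 and -1.37. The day 14 value is 2.58-fold lower. Over the alternatives the mean over arrays spanned -0.82 to 0.48 for Hspa5, so its direction against sham depends on the processing. Its DnaJ partners Dnajb11 and Dnajc3 took the same order, with 0.27, -0.52, -0.73 and -0.85 for Dnajb11 and 0.16, -0.29, -0.57 and -0.82 for Dnajc3, which was named after its values were seen. With the deposited ratios Dnajb11 was lowest on day 7, at -2.07, and at -1.49 on day 14. The partner Dnajb9 did not. It lay at -0.92, -1.68, -0.51 and -0.87, lowest on day 3, where a second probe gave -1.62. Dnajc10, a disulfide reductase of the same compartment, lay at -0.44, 0.44, -0.45 and -0.30.

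The other Hsp70 genes stayed within 2-fold. Hspa2 and Hspa1l, forms known from testis, were lowest on day 1 at -0.95 and -0.76. Mitochondrial Hspa9a lay between -0.30 and -0.07, ribosome-associated Hspa14 went from 0.28 and 0.44 to -0.40 and -0.33, and the distant relatives Hspa12a and Hspa12b lay between -0.10 and 0.43. Of the Hsp110 genes, which exchange nucleotide for Hsp70, Hsph1 lay at -0.10, -0.49, -0.83 and -0.81 and Hspa4l between -0.17 and 0.33. The size for Hspa4l depends on the processing, since its late minus early difference spanned 0.17 to 2.00 over the alternatives. The 2 probes of Hspa4 disagreed, with -0.67, -0.73, -0.91 and -0.05 for the brighter and 0.01, 0.46, 0.99 and 0.13 for the other, so no direction is given for Hspa4.

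The mitochondrial chaperonin was near sham early and lower later. Hspd1 (Hsp60) had ratios of -0.03, 0.04, -0.69 and -0.63, and 2 of its other probes were past 2-fold on day 7 at -1.14 and -1.15. Its partner Hspe1 (Hsp10) lay at -0.14, 0.17, -0.12 and -0.49. Direction against sham depends on the processing for both. Over the alternatives the mean over arrays spanned -0.48 to 0.74 for Hspd1 and -0.25 to 0.92 for Hspe1.

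Of the 27 DnaJ genes, 25 were measured on days 3, 7 and 14 and 24 on day 1, and 2, 3, 2 and 0 of them were at least 2-fold lower on days 1, 3, 7 and 14. Dnaja4, a cytosolic DnaJ, had injured signals of 6.8, 6.7, 7.2 and 7.8 and sham signals of 8.3, 8.3, 8.5 and 8.2, with ratios of -1.47, -1.58, -1.23 and -0.47. Dnajb4, also of the cytosol, lay at -1.41, -1.45, -0.82 and -0.60. Dnajc2, which sits on the ribosome, was past 2-fold on day 7 alone, with -0.72, -0.62, -1.01 and -0.89. With Dnajb9 these were the DnaJ genes past 2-fold by the loess ratios, and by those ratios each was below sham on all 4 days. Over the alternatives the mean over arrays spanned -0.90 to 0.05 for Dnajc2.

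No DnaJ gene was at least 2-fold higher by the loess ratios. Dnajb1, the stress-induced partner of Hspa1a, was the highest on days 1, 3 and 7, with 0.57, 0.48, 0.82 and 0.12. Its second probe gave 0.54, 0.19, 0.35 and -0.13. Dnajc5, a vesicle protein of nerve endings, went from -0.24 and -0.51 to 0.49 and 0.30, and Dnajc4 from -0.71 and -0.83 to 0.23 and 0.15. Dnajc15, of the mitochondrial import machinery, lay at -0.75, -0.67, -0.00 and 0.20, and Dnajc9, a histone chaperone, at -0.12, 0.41, -0.69 and 0.36. Endosomal Dnajc13 lay at 0.41, -0.32, -0.40 and -0.60.

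The adaptors, which link Hsp70 to Hsp90 or to degradation, stayed within 2-fold by the loess ratios. Stip1, which joins Hsp70 to Hsp90, lay at -0.25, -0.46, -0.68 and -0.83, and Hspbp1, an exchange factor of Hsp70, at -0.08, -0.21, -0.43 and -0.72. Both were further below sham at each later time. Stub1, the ubiquitin ligase of the Hsp70 system, lay between -0.20 and 0.04, and Hspbap1 between -0.29 and 0.11. Hspa5bp1 was at -0.63, 0.02, 1.25 and 0.58.

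**Figure D3:**
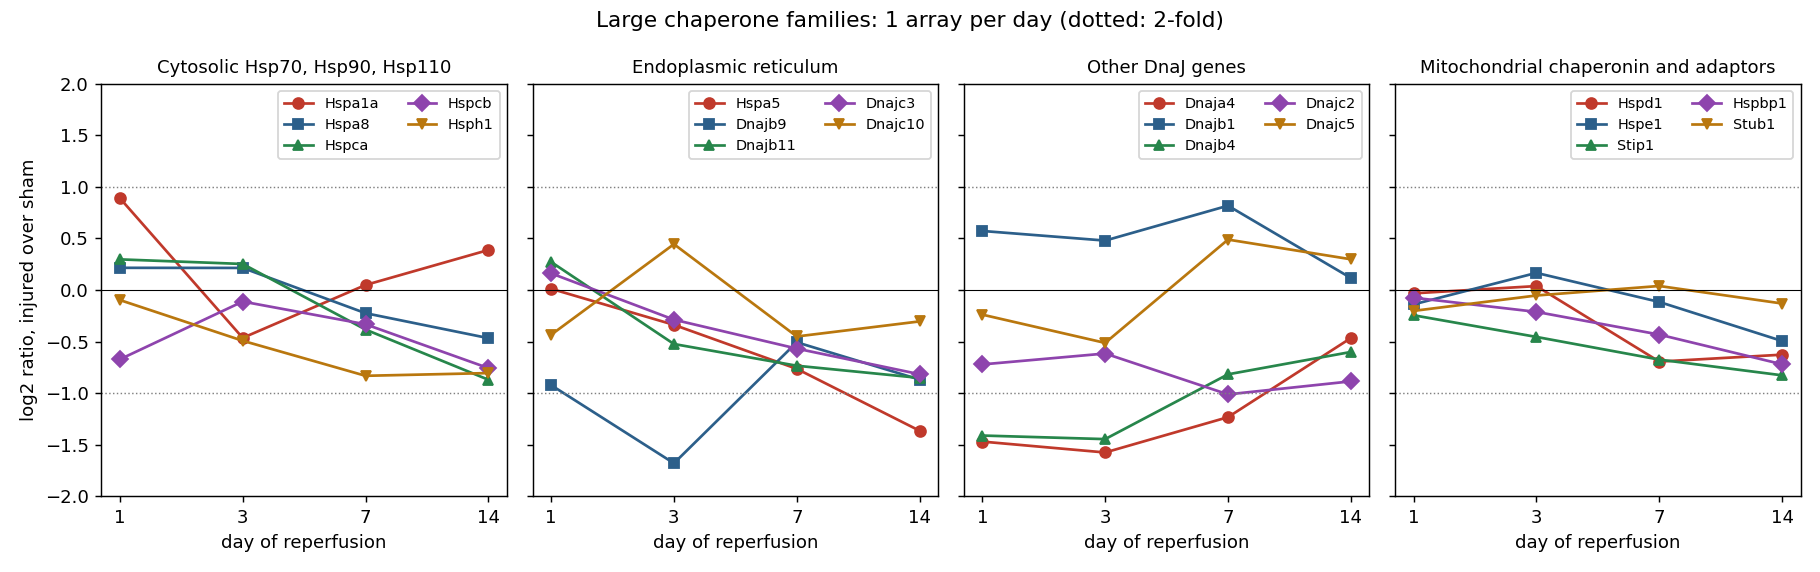
Log2 ratio of injured over sham (vertical axis) by day of reperfusion (horizontal axis), 1 array per day, for named genes of the large families and adaptors; dotted lines mark 2-fold. Hspa5, Stip1 and Hspbp1 are lower at each later day, Dnaja4 and Dnajb4 are lowest on days 1 and 3, and Dnajb1 stays above 0 by its brightest probe, while its second probe gave -0.13 on day 14.

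The large families as a whole lay slightly below sham. Ratios below 0 were found for 67.5%, 70.7%, 78.0% and 70.7% of their measured genes on days 1, 3, 7 and 14, against 46.3%, 44.9%, 44.3% and 43.0% of all genes. Direction at this size depends on the normalization. Centring each array on its median without loess, which moved the median of all genes to between 0.27 and 0.37, put the large families at 0.69, 0.31, 0.19 and 0.18 and the small heat shock proteins at -1.35, -1.56, 0.40 and 0.09. On that scale Hspa1a was 2.02 and Hspca 1.86 on day 1, and Hspa5 was -0.55 on day 14. Among members other than the small heat shock proteins, 99 of the 152 values below sham lay above it with that centring, 8 with the deposited ratios and 9 when all 4 sham signals were averaged. No value past 2-fold turned. On day 1 the small heat shock proteins lay below the large families under every setting tried, and likewise on day 3.

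**Figure D4:**
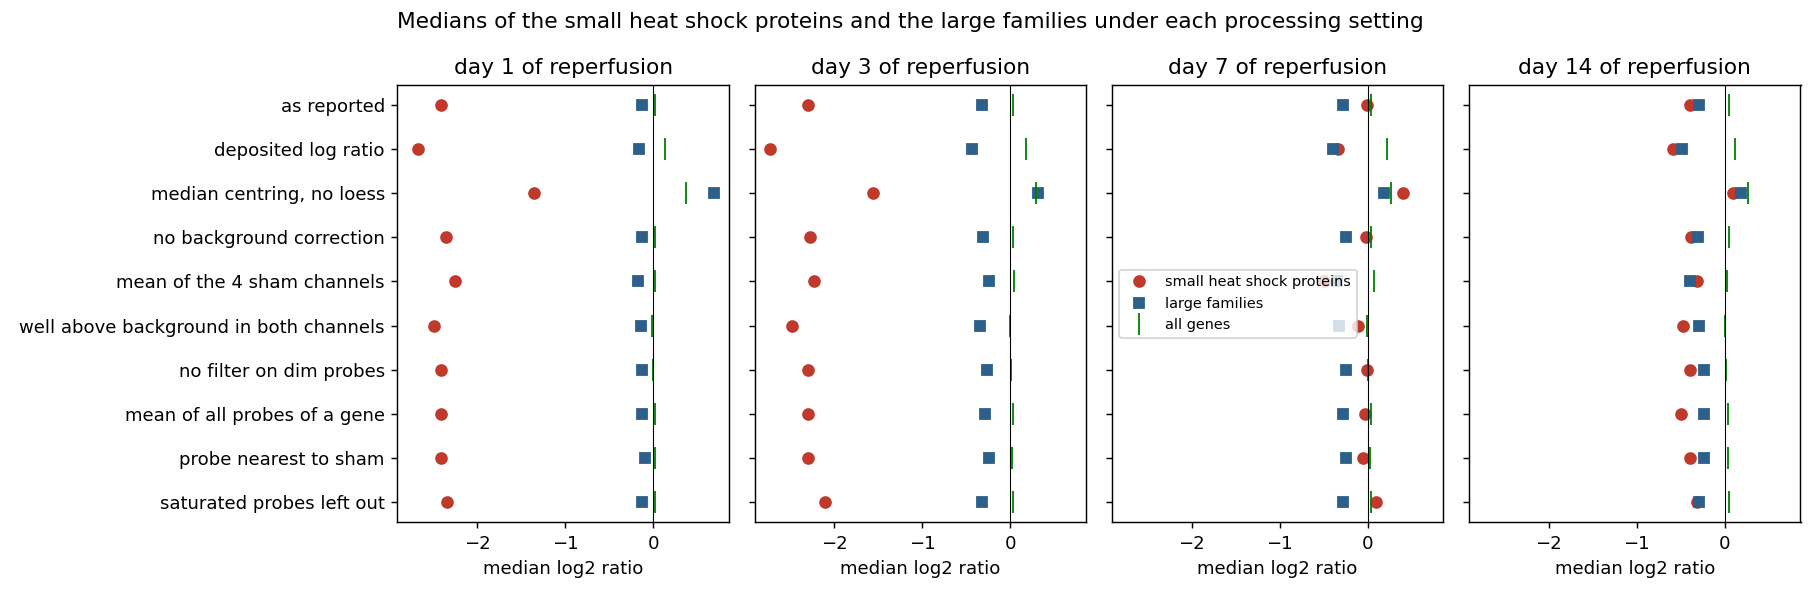
Median log2 ratio (horizontal axis) of the small heat shock proteins (red), the large families (blue) and all genes (green) under each processing setting (vertical axis), in 1 panel per day. The red points lie left of the blue on days 1 and 3 under all settings, and on days 7 and 14 their order varies.

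Among folding genes outside the members, those specific to muscle were low on days 1 and 3. Unc45b, the myosin chaperone of striated muscle, lay at -2.86, -2.61, -0.12 and -0.49, and Smyd1, its muscle partner, at -1.57, -1.41, 0.72 and 0.44, while the general form Unc45a lay between 0.03 and 0.38. These were the 2 of 13 measured Hsp90 and Hsp70 partners at least 2-fold lower on days 1 and 3. On day 14 the 1 lower partner was St13, which stabilizes Hsp70 complexes, at -1.16, and none was higher on any day. The chaperonin of the cytosol and prefoldin had 0, 0, 1 and 1 of 11 genes at least 2-fold lower, both times Cct7 (-1.15 and -1.03), with medians of -0.08, -0.33, -0.39 and -0.54.

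Chaperones of the endoplasmic reticulum were near sham until day 7 and lower on day 14. Their medians were 0.06, 0.11, 0.09 and -0.78 (8 genes). Pdia4, a disulfide isomerase, was at least 2-fold higher on days 1 and 3 (1.27 and 1.20), and Calr, Hyou1 and Pdia6 were lower on day 14 (-1.14, -1.11 and -1.02), the day on which Hspa5 passed 2-fold. Serpinh1, the collagen chaperone, went from -0.91 on day 1 to 0.53 on days 3 and 7 and -0.00 on day 14. Of 4 mitochondrial partners, Clpx, a protein-unfolding subunit, was lower on days 1 and 3 (-1.10 and -1.09) and the others stayed within 2-fold.

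Markers of other cell types also differed from sham. The 3 neutrophil markers had medians of 2.62, -0.20, -1.20 and -2.57. Of them 3, 1, 1 and 0 were at least 2-fold higher and 0, 0, 2 and 2 lower. The highest lay at 2.02 on day 3 and 1.34 on day 7, so the medians of those days hide opposite members. The 4 fibroblast markers had medians of -1.56, 1.64, 1.52 and 1.69. The 5 macrophage markers went both ways. At least 2-fold higher were 1, 1, 2 and 1 of them and lower were 1, 1, 1 and 2, with C1qa at 3.55 and Cd163 at -1.95 on day 7, so their medians of 0.42, -0.07, -0.40 and -0.89 hide opposite members. The T cell markers Cd3d and Cd3g lay within 0.28 of sham on days 1 and 3 and were higher on days 7 (2.00 and 2.89) and 14 (2.65 and 3.44), and Cd3e was not well above background until day 14. Both dividing cell markers were higher on day 3 (median 1.57) and lay at -0.92 on day 14. Of the 4 endothelial markers 0, 0, 1 and 1 were at least 2-fold higher, of the 3 fat cell markers 0, 1, 1 and 1, and none was lower. The 4 markers of regenerating fibres had medians of -2.90, -0.31, 2.04 and 0.71, with embryonic myosin Myh3 at least 33.8-fold higher on day 7. Their summed signals in injured against sham muscle spanned 8.27 to 13.6 against 10.6 to 11.2 for neutrophil, 13.9 to 14.9 against 13.2 to 13.5 for macrophage, 14.0 to 16.9 against 14.6 to 15.7 for fibroblast and 11.4 to 16.0 against 13.3 to 13.8 for regenerating fibre genes. They spanned 9.35 to 12.3 against 9.27 to 9.79 for T cell, 8.72 to 11.2 against 9.35 to 9.75 for dividing cell, 12.4 to 13.7 against 11.7 to 12.1 for endothelial and 9.94 to 11.8 against 9.91 to 10.1 for fat cell genes. The part of these cells in the chaperone values was not tested.

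Whether any member differed from sham steadily was tested with limma on the 4 arrays, with Benjamini-Hochberg adjustment over 20528 genes. Of 59 members, 0 were higher and 0 lower at an adjusted p of 0.05, against 0.0244% and 0.156% of all genes. At an unadjusted p under 0.05 there were 1 higher and 23 lower, against 11.7% and 10% of all genes. Dnajc2 had the smallest adjusted p, 0.0759 in limma, with a mean of -0.81 (SE 0.09). Its loess ratios were lower on 4 of 4 arrays. The 4 arrays are different days, so a gene that moves between days adds to its own error.

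Whether the late days differed from the early ones was tested as days 7 and 14 minus days 1 and 3 in limma, 2 arrays against 2. Days within a phase stand in for replicates, which they are not. The 4 members higher late were Hspb3, Hspb6, Hspb2 and Hspb1, all small heat shock proteins, and 0 were lower, against 1.7% and 0.229% of all genes. The difference was 4.07 (SE 0.18, adjusted p = 0.0141) for Hspb3, 2.99 (SE 0.19, adjusted p = 0.0191) for Hspb6, 1.84 (SE 0.17, adjusted p = 0.0341) for Hspb2 and 1.48 (SE 0.16, adjusted p = 0.0400) for Hspb1, all in limma. In each the ratios of both late days exceeded those of both early days, which follows from being called and adds no support.

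The other low genes did not pass that test. Cryab had a late minus early difference of 1.99 (adjusted p = 0.207), Hspb8 of 1.83 (adjusted p = 0.0741) and Bag3 of 1.16 (adjusted p = 0.0755) in limma. At an unadjusted p under 0.05 there were 18 members higher and 8 lower late, against 11.9% and 7.36% of all genes.

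The count of 4 rests on both late arrays. Without day 7 or without day 14 it was 0, without day 1 it was 2 (Cryab and Hspb3) and without day 3 it was 3. Against the mean of the 4 sham channels Hspb2 alone was called, and with the deposited ratios Hspb2 and Hspb6. The late minus early difference of all 4 genes stayed above 0 under every setting, from 3.22 to 4.58 for Hspb3, 2.47 to 3.23 for Hspb6, 1.71 to 2.53 for Hspb2 and 1.10 to 1.62 for Hspb1.

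**Figure D5:**
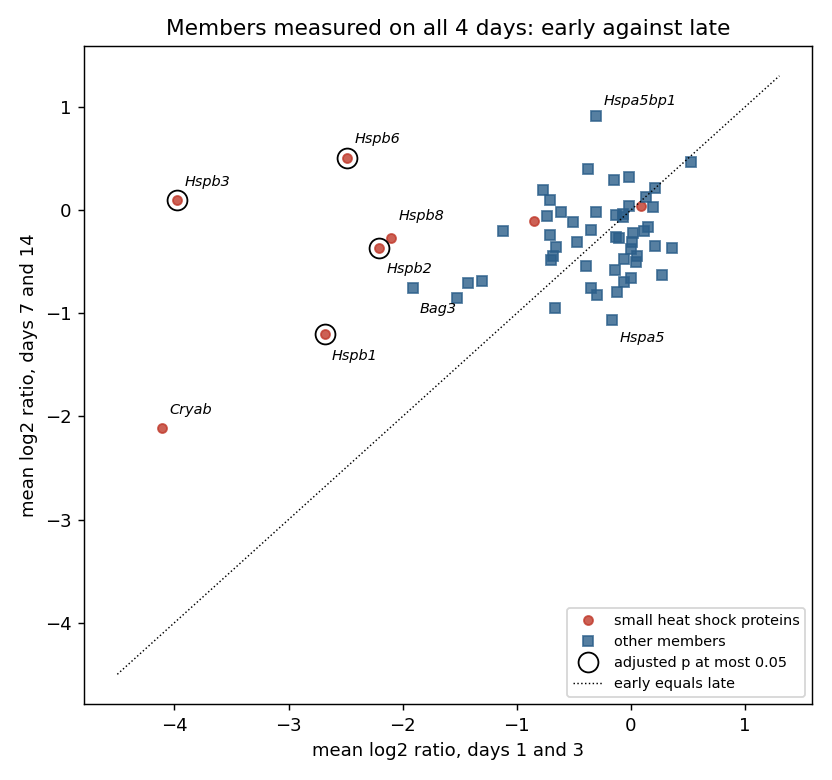
Mean log2 ratio over days 1 and 3 (horizontal axis) against that over days 7 and 14 (vertical axis) for the 59 members measured on every day. Small heat shock proteins are red, other members blue, and circles mark the 4 genes with an adjusted p of at most 0.05 in limma; the dotted line marks equal values, and Hspa5 lies below it.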

How the data were processed

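The 4 two-colour Agilent arrays, 1 per day of reperfusion, were analysed from the scanner output that the authors deposited. It was made with Feature Extraction, version 10.5.1.1 per the file headers and 9.5.3 per the submitters' processing notes. Spot intensity was deposited as mean pixel brightness beside the median of the local background, neither normalized. The deposited log10 ratio, per the file headers, was background-subtracted, detrended and dye-normalized. The deposited spatial factor of a spot is a ratio to the array's average brightness. The deposited value table holds log2 ratios equal to the log10 ratio rescaled, within 0.005 over 40972 probes.

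From the intensities, log2 ratios were computed with R 4.3.3 and limma 3.58.1: normexp background with an offset of 50 and loess within each array, without control and outlier spots. Spots of a probe were averaged and the brightest probe stood for its gene. Signals of single channels came from quantile normalization between arrays. Where the bright channel was saturated, the fold is written as at least N-fold. Where the dim channel was not well above background, so it was too, with the dim value raised to the lowest signal well above background. Probe positions are rn4, per the file headers. Promoters came from RefSeq (GRCr8), matched by symbol. Depth has no counterpart on arrays, and their number, 4, limits the precision.

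Each day was described by counts past 2-fold. The mean and the late minus early difference were tested in limma over 20528 genes measured on every array. The steps were tested on simulated data. Alternatives were the deposited ratios, median centring, no background correction, the mean of the 4 sham channels, stricter and no filters on dim probes, other rules for probes, no saturated spots, and each array left out. The rule for named genes took every measured member outside DnaJ, and the DnaJ genes past 2-fold on any day or among the 3 highest or 3 lowest of a day. Members, lists and tests were chosen with earlier results of these data known.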

Additional observations from a re-analysis of the deposited data

Results flagged for a closer look

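The late minus early difference in the ratio to sham passed the adjusted threshold for 4 small heat shock proteins, in a test of the difference itself. The 2 days of a phase stood in for replicates, which they are not, so the p-values do not measure the spread between animals alone. The difference was 4.07 for Hspb3, 2.99 for Hspb6, 1.84 for Hspb2 and 1.48 for Hspb1, with adjusted p-values from limma of 0.0141, 0.0191, 0.0341 and 0.0400. The day 7 value of Hspb3 depends on the processing. Over the alternatives the adjusted p spanned 0.0121 to 0.278 for Hspb3, 0.0153 to 0.193 for Hspb6, 0.0286 to 0.182 for Hspb2 and 0.0365 to 0.175 for Hspb1. In all 4 genes both late ratios lay above both early ratios, which follows from being called by that test. Muscle fibre markers moved the same way, with medians of -3.34 and -4.30 on days 1 and 3 and -0.90 and 0.26 on days 7 and 14, and their part was not tested.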

How the results depend on the processing

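With the deposited ratios, 3 members were at least 2-fold higher and 13 lower on day 7, 2 higher and 12 lower on day 14, 4 passed the test of the mean (Cryab, Dnaja4, Dnajb4 and Dnajb5, all lower) and 2 the late minus early test. Of all genes 3.8% and 1.22% passed these tests with those ratios. With median centring and no loess, 17, 12, 4 and 5 members were higher on days 1, 3, 7 and 14, 6, 1 and 1 were lower on days 1, 7 and 14, and 20 of 59 (33.9%) passed the test of the mean, 19 of them higher, against 41.5% of all genes. Against the mean of the 4 sham channels, 2 members were higher and 8 lower on day 7 (3.33% and 13.3%), against 3.61% and 3.06% of all genes. On day 14, 2 were higher (3.33%), against 3.67% of all genes. With that setting the small heat shock protein median minus the large family median on day 7 was -0.15 in place of 0.28. There 1 member passed the late minus early test, 1.69% against 0.726% of all genes. Leaving out 1 array at a time gave 0 members past the test of the mean, and at most 0.0381% of all genes. For the late minus early test it left 1 array in a phase, so its counts, which differed from 4, are not read. The cause of these differences was not tested. Shares of all genes past 2-fold, given in the results, moved far more than 1.5 times with the deposited ratios and with median centring. The remaining counts of members lay within 1.5 times the reported ones, and no difference past 2-fold changed its sign under the alternatives run. Day 14, the only array of its scan session, gave no within-session value beyond the fit without it. No paired analysis was possible because each group has 1 array. Signal over background limits Hspb9, Hspa1b, Dnajb13, Dnajc5g, Dnajc6 and further members. The sham channel was not well above background for 6, 8, 10 and 6 members on days 1, 3, 7 and 14. Among them were 1 Hsp110 gene on every day and 1 Bag gene on days 3 and 7. Saturation limits Cryab and, among the markers, Myh7, Tnnc2, Ckm, Mb, Myh3, Col1a1 and Col3a1.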
